A study of Rattus norvegicus with 16 samples.

Results

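Transcript levels of 40 named genes of sterol and fatty acid synthesis were followed in the rat initial segment, the most proximal part of the epididymis, after efferent duct ligation (EDL). The genes were chosen by name, with earlier results of these data known. Each was read from its brightest probe set, by the mean of the 16 arrays, among those the platform annotation gives to its symbol alone. Of the 40 genes, 38 had such a probe set, and 37 reached the level needed for testing, out of 13410 probe sets tested in the whole table. Hmgcs1 and Npc1 had no such probe set, so their levels were not analysed here. Dhcr7, the last reductase of cholesterol synthesis, read 2.22 to 2.23 in every array, at the lowest value of the table, and was not tested. The genes were kept in 4 arms: sterol synthesis enzymes (18 named, 16 tested), sterol sensing and SREBP control (5 tested), fatty acid enzymes and lipin (10 tested), and sterol transport and LXR (7 named, 6 tested).

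All tissue came from normal adult male Sprague-Dawley rats, in which the efferent ducts, the path of testicular fluid to the epididymis, were tied on 1 side and the opposite side received a sham operation. The groups were sham, 6 h EDL, 12 h EDL and 18 h EDL, with 4 arrays each, and each array held RNA of the most proximal piece of the segment (zones 1a and 1b). The labels call the replicates biological and give no animal for a replicate number, so each p-value reflects only how much these arrays vary. Since both sides of a rat were operated on, sham and ligated arrays may share animals. The labels do not say which, and the main fit took all arrays as separate. The 1 sham group served all 3 times, so each comparison with sham uses the same 4 sham arrays, and a change with time apart from ligation was not measured.

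Cholesterol is built from acetyl-CoA through the mevalonate pathway, squalene and lanosterol. When sterols in the endoplasmic reticulum run low, SCAP escorts the membrane-bound SREBP factors to the Golgi, where they are cut and released to switch on their target genes, and INSIG proteins hold that complex back when sterols are plentiful. SREBP2 acts mainly on sterol enzymes and SREBP1c mainly on fatty acid enzymes, while the oxysterol receptors called LXRs switch on cholesterol efflux and Srebf1. In the epididymis, maturing sperm change the sterols and fatty acids of their membranes, and in the mouse the loss of both LXRs is known to damage the proximal epididymis.

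Values are log2 levels made by the submitters with GCRMA, so 1 unit is a doubling, and levels are compared only within a probe set. A gene is called where its adjusted p from limma, over all tested probe sets of that comparison, was under 0.05. A control transcript named dap lay between 6.98 and 7.93 on replicates 3 and 4 of the sham and 6 h groups. It lay at the lowest value, 2.22, on all other arrays. Replicates 3 and 4 differed from replicates 1 and 2 in 10 of the 37 genes (27.0%), against 36.9% of all tested probe sets. For that reason the change within replicates 1 and 2 and the change within replicates 3 and 4 are given beside the called results. An array set was inferred from the replicate number and the dap level, and the labels name no such set. Replicates 1 and 2 of all groups form 1 set. Replicates 3 and 4 at 12 h and 18 h form another set than those of sham and 6 h. Within replicates 3 and 4, array set and ligation time therefore cannot be told apart between 12 or 18 h and sham or 6 h. Sham and 6 h share 1 set there, as do 12 h and 18 h. Blocks for the array set and for the replicate pair (1 and 2, or 3 and 4) were also fitted. With the array set block, the average step from sham and 6 h to 12 h and 18 h rests on replicates 1 and 2 alone. A call kept or lost with that block is therefore no independent check.

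At 6 h no gene of the 37 was called higher or lower by limma, where 0.112% of all tested probe sets were called higher and 0.172% lower. At an unadjusted p under 0.05, 9 genes were higher (3.55% of all tested probe sets) and 0 were lower (2.15%). The sterol enzymes made up 7 of those 9. All 16 sterol enzyme estimates lay above 0, with a median log2 difference of 0.37. Of all tested probe sets, 56.8% lay above 0, with a median of 0.02. The 16 estimates rest on the same arrays, here and in later counts, and so are not 16 independent results. In 5 of the 16 the 4 ligated arrays all lay above the 4 sham arrays, as they did for 2.87% of all tested probe sets. Those 5 were Fdft1 (squalene synthase), Sqle (squalene epoxidase), Cyp51 (lanosterol demethylase), Tm7sf2 (a sterol reductase) and Msmo1 (methylsterol monooxygenase). Their differences from sham were 0.50, 0.37, 0.43, 0.71 and 0.51, and the smallest adjusted p among them was that of Msmo1, 0.244. Within replicates 1 and 2 all 16 estimates were above 0, and within replicates 3 and 4 it was 15 of the 16, with Mvk (mevalonate kinase) at -0.03. The other 3 arms had medians of -0.01 to -0.04 at 6 h. In whole tissue, fewer cells of a type and less RNA per cell cannot be told apart, here and in all comparisons that follow.

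**Figure D1:**
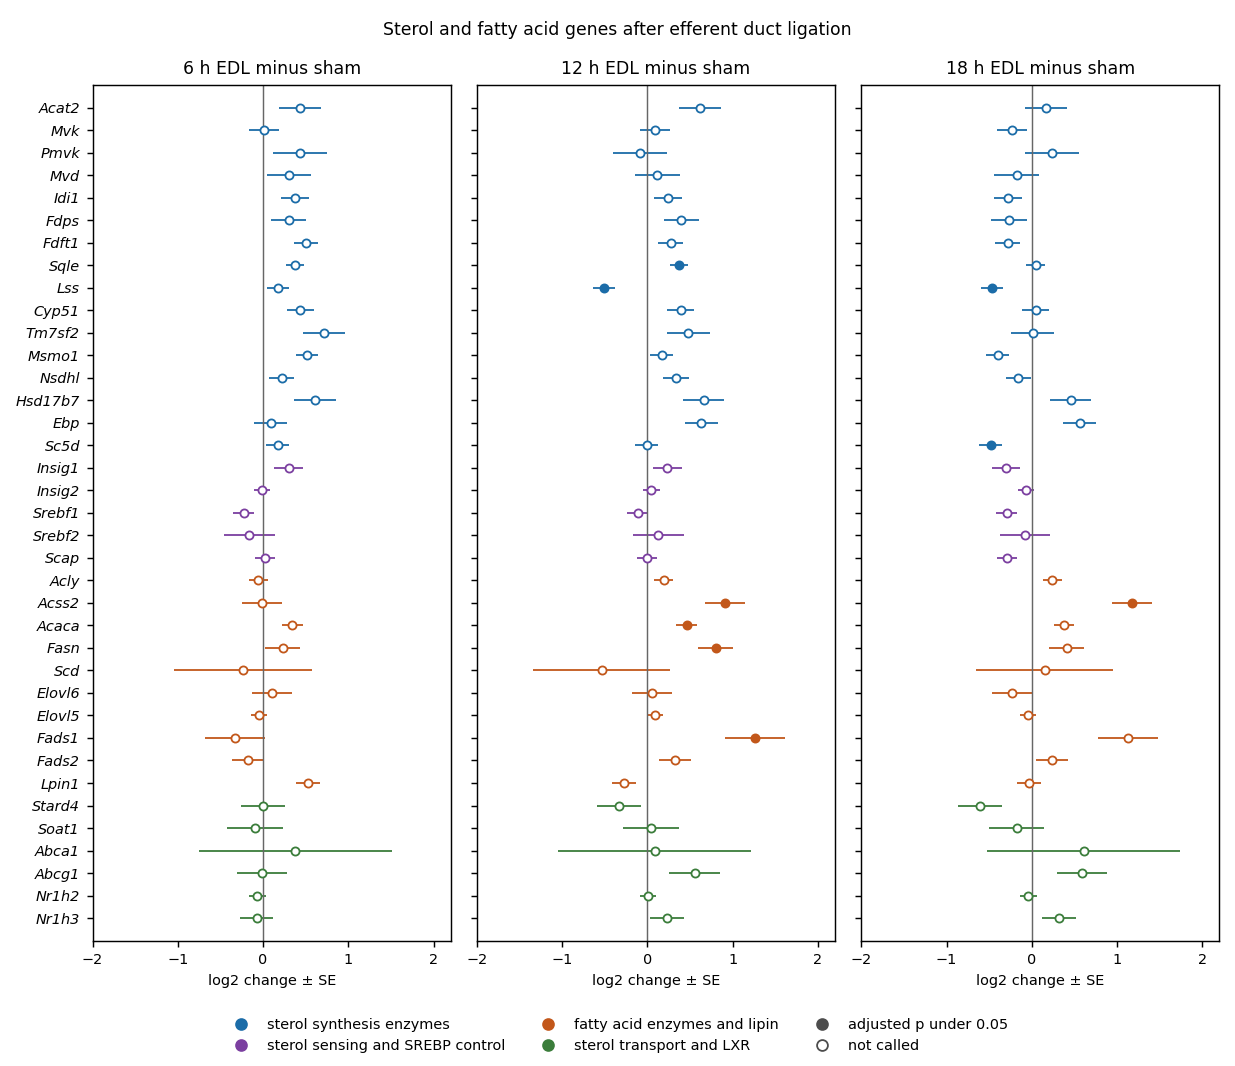
Log2 change from sham with its standard error (horizontal axis) for the 37 tested genes, at 6, 12 and 18 h of EDL from left to right, coloured by arm; filled points have an adjusted p under 0.05. The 16 sterol enzymes all lie at or right of 0 at 6 h, and 9 of them lie left of 0 at 18 h.

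At 12 h, 5 genes were higher than in sham tissue (3.77% of all tested probe sets) and 1 was lower (4.09%). Sterol enzymes gave 2 of these calls, in opposite directions. Sqle, which makes the first oxygenated precursor of the sterol ring, read 9.53, 9.65, 9.74 and 9.63 in the sham arrays, 10.17, 10.08, 9.87 and 9.91 at 6 h, 10.10, 9.84, 10.00 and 10.07 at 12 h, and 9.48, 9.90, 9.70 and 9.64 at 18 h. Every array at 6 h and at 12 h lay above all sham arrays, and the 18 h arrays overlapped sham. At 12 h Sqle was 0.37 ± 0.11 (SE) above sham, an adjusted p of 0.0497 in limma, and the difference was 0.38 within replicates 1 and 2 and 0.35 within replicates 3 and 4. With an array set block Sqle was no longer called (adjusted p = 0.162).

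Lss, lanosterol synthase, closes that ring in the next step, and its level moved the other way. Lss read 9.68, 9.38, 9.58 and 9.77 in the sham arrays, 9.98, 9.71, 9.75 and 9.66 at 6 h, 8.97, 9.27, 9.07 and 9.06 at 12 h, and 9.39, 9.23, 9.10 and 8.82 at 18 h. All 12 h arrays lay below all sham and all 6 h arrays, and the highest 18 h array came just above the lowest sham array. Against sham, Lss fell by 0.51 at 12 h (SE 0.13, adjusted p = 0.0278 in limma) and by 0.47 at 18 h (SE 0.13, adjusted p = 0.0345). Within replicates 1 and 2 these differences were -0.40 and -0.22, and within replicates 3 and 4 they were -0.61 and -0.72. The array set block ended both calls against sham (adjusted p = 0.119 at 12 h and 0.152 at 18 h). Against 6 h, Lss fell by 0.68 at 12 h (SE 0.13, adjusted p = 0.00990) and by 0.64 at 18 h (SE 0.13, adjusted p = 0.00777), and both calls held in every fit that left out 1 array and with the array set block (adjusted p = 0.0420 and 0.0438). Within replicates 1 and 2 these differences were -0.72 and -0.54, and within replicates 3 and 4 they were -0.64 and -0.74. A dimmer tested probe set of Lss gave -0.82 and -0.86 for the same 2 comparisons, at adjusted p of 0.0995 and 0.0593. Against sham that probe set gave -0.50 at 12 h and -0.54 at 18 h, not called (adjusted p = 0.324 and 0.248).

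At 18 h, 1 gene was higher than in sham tissue (5.20% of all tested probe sets) and 2 were lower (4.96%), the 2 being Lss and Sc5d. Among the 16 sterol enzymes, 7 estimates lay above 0 and 9 below, with a median of -0.17, against 13 above 0 and a median of 0.30 at 12 h. Against sham, Lss lost its 18 h call in 6 of the 8 fits without 1 array (limma adjusted p up to 0.105). Sc5d lost its 18 h call in 5 of the 8 (limma adjusted p up to 0.109). The count of called genes at 18 h became 1 without sham replicate 4 or without 18 h replicate 3, and 5 without sham replicate 2, where Fdft1 and Msmo1 joined as lower.

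In the direct comparison of 18 h with 6 h of ligation, 7 of the 37 genes were lower (4.34% of all tested probe sets) and 2 were higher (3.54%). The sterol enzymes supplied 5 of the 7 lower calls, and 15 of their 16 estimates lay below 0 with a median of -0.44, with 11 of the 16 not called, whereas 52.6% of all tested probe sets lay below 0 with a median of -0.02. In 7 of the 16 the 4 arrays at 18 h all lay below the 4 arrays at 6 h, as did 8.43% of all tested probe sets. The medians within replicates 1 and 2 and within replicates 3 and 4 were -0.45 and -0.41.

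Msmo1, which removes methyl groups from lanosterol-derived sterols, had the largest fall in this comparison among the 37 genes. It read 10.96, 10.45, 10.87 and 10.67 in the sham arrays, 11.41, 11.14, 11.23 and 11.24 at 6 h, 11.08, 10.87, 10.72 and 10.95 at 12 h, and 10.02, 10.52, 10.41 and 10.39 at 18 h. The 6 h arrays lay above all other arrays, and every 18 h array lay below every 6 h and 12 h array. Between 6 h and 18 h Msmo1 fell by 0.92 (SE 0.13), so that the 18 h level was 0.530 of the 6 h level (adjusted p = 0.00119 in limma). Within replicates 3 and 4 the change was -0.83, and within replicates 1 and 2 it was larger.

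Fdft1, which makes squalene and so commits carbon to sterols, gave the next largest fall. Its levels were 9.20, 8.60, 9.22 and 9.16 in the sham arrays, 9.69, 9.38, 9.60 and 9.51 at 6 h, 9.28, 9.09, 9.29 and 9.59 at 12 h, and 8.81, 8.84, 8.73 and 8.65 at 18 h. The 18 h arrays were close together and below all 6 h and 12 h arrays, and the sham arrays spanned a wider range with replicate 2 the lowest. Fdft1 fell by 0.78 between 6 h and 18 h (SE 0.14, adjusted p = 0.00390 in limma), by 0.71 within replicates 1 and 2 and by 0.86 within replicates 3 and 4. A second Fdft1 probe set fell by 0.75 (adjusted p = 0.00311).

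Idi1, the isomerase that readies isoprenoid units for joining, read 10.84, 10.33, 10.45 and 10.45 in the sham arrays, 11.11, 10.83, 10.74 and 10.89 at 6 h, 11.16, 10.76, 10.43 and 10.70 at 12 h, and 10.01, 10.13, 10.25 and 10.55 at 18 h. The 6 h and 18 h arrays did not overlap, and the 12 h arrays reached from the sham range to just past the top of the 6 h range. Idi1 fell by 0.66 between 6 h and 18 h (SE 0.16, adjusted p = 0.0242 in limma), by 0.90 within replicates 1 and 2 and by 0.42 within replicates 3 and 4. A second Idi1 probe set fell by 0.84 (adjusted p = 0.0202).

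Sc5d, the desaturase late in cholesterol synthesis, read 9.53, 9.23, 9.58 and 9.44 in the sham arrays, 9.62, 9.43, 9.56 and 9.83 at 6 h, 9.57, 9.46, 9.26 and 9.44 at 12 h, and 8.64, 9.10, 8.86 and 9.25 at 18 h. The first 3 groups shared 1 range, and only the highest 18 h array touched the sham range. Sc5d fell by 0.65 between 6 h and 18 h (SE 0.14, adjusted p = 0.00898 in limma) and by 0.48 at 18 h against sham (SE 0.14, adjusted p = 0.0366). These differences were -0.66 and -0.51 within replicates 1 and 2, and -0.64 and -0.46 within replicates 3 and 4. The 2 other tested Sc5d probe sets gave -0.67 and -0.67 at 18 h against 6 h, with 1 of them called (adjusted p = 0.0390 and 0.0947). Against sham they gave -0.14 and -0.31, neither of them called, and the array set block ended the call against sham (adjusted p = 0.143).

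**Figure D2:**
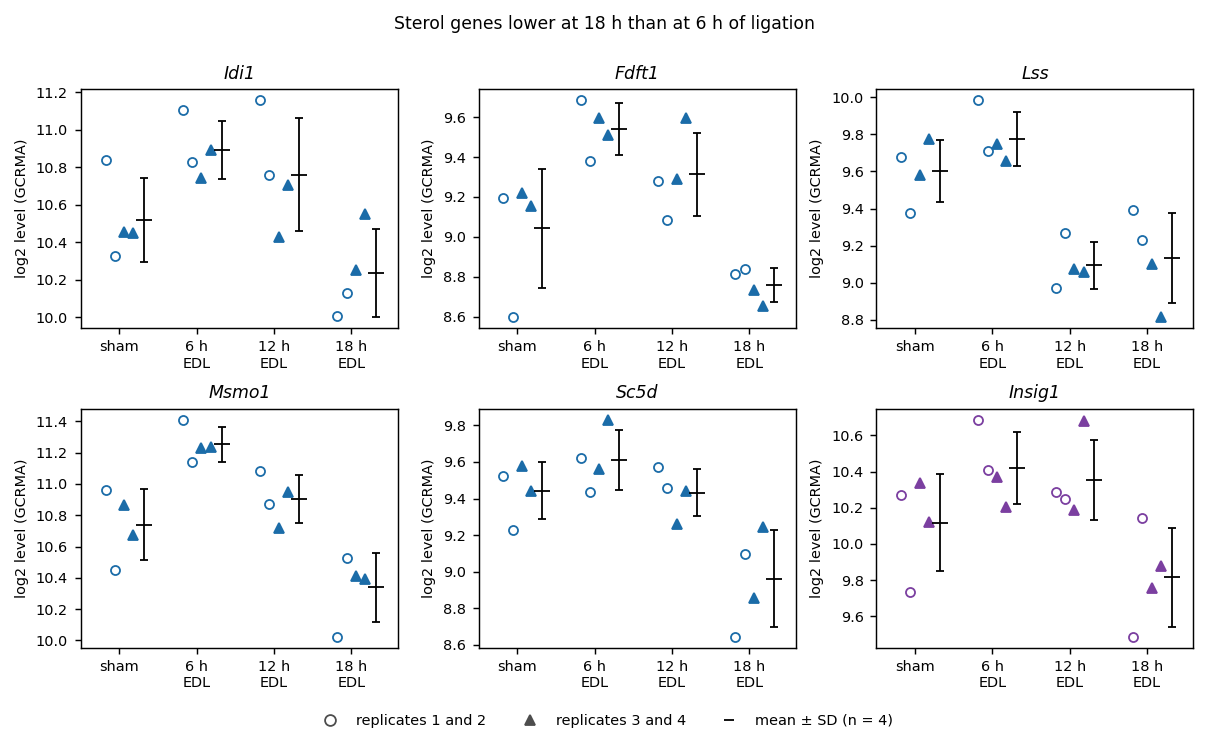
Log2 level (vertical axis) in each of the 4 arrays of sham, 6 h, 12 h and 18 h EDL for the 5 sterol enzymes and Insig1 that were lower at 18 h than at 6 h; circles are replicates 1 and 2, triangles replicates 3 and 4, and bars mean ± SD. In all 6 panels the 18 h arrays lie below the 6 h arrays, and in Lss and Msmo1 the 12 h arrays do so too.

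The remaining sterol enzymes were not called in any comparison other than Sqle at 12 h. At 18 h against 6 h, Tm7sf2 gave -0.70 ± 0.25 (SE, adjusted p = 0.107) and Fdps, farnesyl diphosphate synthase, gave -0.57 ± 0.21 (SE, adjusted p = 0.113), and the array set block brought both under the threshold (adjusted p = 0.0314 and 0.0390). Cyp51 gave -0.39 by the probe set used, whose probes are shared between transcripts by the array's naming, and -0.69 (adjusted p = 0.00490) by its other tested probe set. Estimates for Acat2 (the thiolase that starts the pathway), Mvk, Pmvk and Mvd (kinases and decarboxylase of the mevalonate pathway), Sqle, Nsdhl and Hsd17b7 (enzymes of sterol demethylation) lay between -0.48 and -0.15. Ebp, the sterol isomerase, was the 1 enzyme with an estimate above 0. Ebp averaged 11.62 ± 0.29 at 18 h, against 11.15 ± 0.26 at 6 h (SD, n = 4 each), with an adjusted p of 0.169 in limma. Against sham, Ebp gave 0.63 at 12 h and 0.56 at 18 h (adjusted p = 0.0675 and 0.0909). With the replicate pair block Ebp was called higher at 12 h and 18 h against sham (adjusted p = 0.0183 and 0.0277) and at 12 h against 6 h (adjusted p = 0.0484), but not at 18 h against 6 h (adjusted p = 0.0610). That block also called Fdps higher at 12 h against sham (adjusted p = 0.0341). The highest group mean fell at 6 h in 10 of the 16 enzymes (27.4% of all tested probe sets), at 12 h in the other 6, and in none at sham or 18 h.

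Leaving out 1 array at a time, the calls of Fdft1, Lss, Msmo1 and Sc5d at 18 h against 6 h held in all 8 fits, with adjusted p of at most 0.0168, 0.0299, 0.00516 and 0.0321. The call of Idi1 was lost in 5 of the 8 fits, with an adjusted p of up to 0.0770 without 6 h replicate 1. The count of called genes fell to 5 without 6 h replicate 1 or without 18 h replicate 3. Between 12 h and 18 h no gene of the 37 was called in either direction (0% of all tested probe sets each way). At an unadjusted p under 0.05, 10 of the 37 genes were lower (3.24% of all tested probe sets) and 0 were higher (3.30%), and 8 of the 10 were sterol enzymes.

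**Figure D3:**
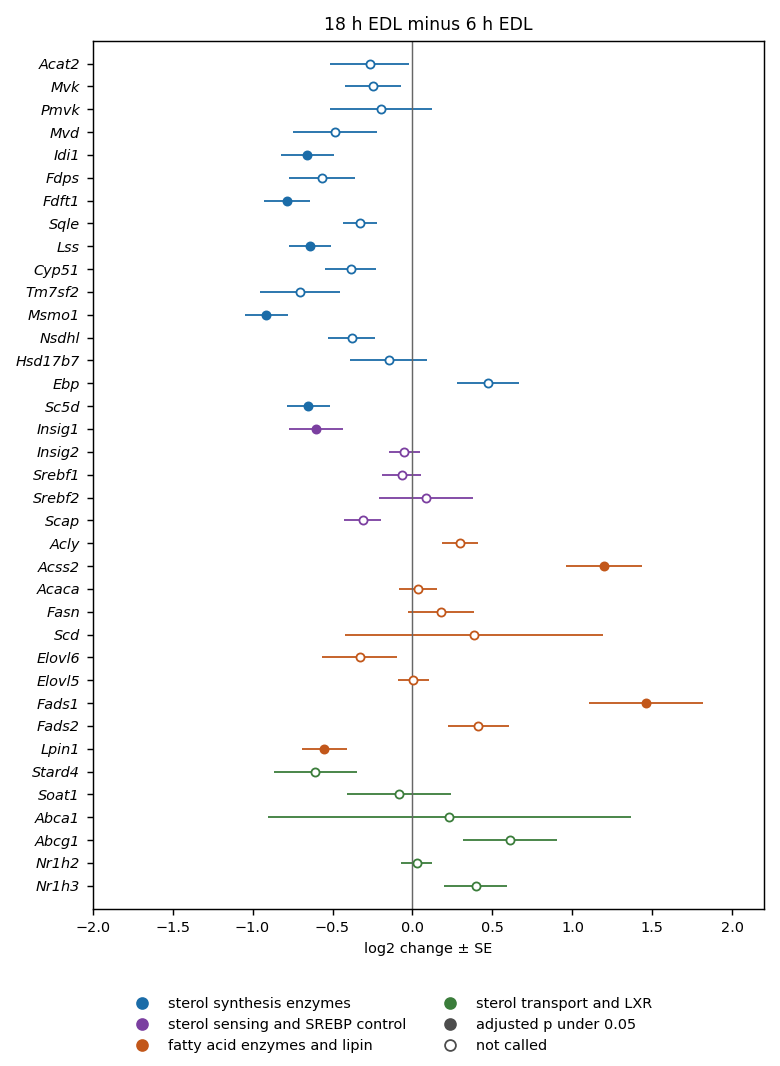
Log2 change at 18 h relative to 6 h of EDL with its standard error (horizontal axis) for the 37 tested genes by arm; filled points have an adjusted p under 0.05. Among the sterol enzymes 15 of 16 points lie left of 0, whereas Acss2 and Fads1 lie farthest right at 1.20 and 1.46.

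Promoter sequence was set beside these levels, since SREBP factors work on promoters together with the factor NF-Y, which binds the CCAAT box. RefSeq promoter windows of 300 bases on the GRCr8 assembly (250 before and 50 from the annotated start) were matched for 32 of the 40 genes, and the letters were searched on both strands. The CCAAT box, CCAAT, was in 22 of the 32 windows, against 37.5% of all 33469 windows. By arm it was in 12 of 15 sterol enzymes, 4 of 5 control genes, 5 of 7 fatty acid genes and 1 of 5 transport genes. The core of the sterol element that SREBP binds, TCACNCCAC, was in 0 of the 32 windows (1.12% of all). At a share that low, 0 of 32 says little. Only these exact letters were searched, so variant elements and elements outside the windows were not looked for. In these genes no match of 1 motif overlapped a match of another. The E-box CACGTG was in 5 of the 32 (6.42% of all): Sc5d, Insig1, Scap, Elovl5 and Abca1. A match is a stretch of letters, not a measured binding site. The windows of 2 genes that fell and 2 that rose between 6 h and 18 h are shown 5′ to 3′ on the gene's strand, with CCAAT boxes of either strand in capitals (ATTGG where the box is on the opposite strand). Msmo1 lies at chr16:29746863-29747162 (+), Insig1 at chr4:8057720-8058019 (-), Acss2 at chr3:164464453-164464752 (+) and Fads1 at chr1:216252442-216252741 (+).
Msmo1: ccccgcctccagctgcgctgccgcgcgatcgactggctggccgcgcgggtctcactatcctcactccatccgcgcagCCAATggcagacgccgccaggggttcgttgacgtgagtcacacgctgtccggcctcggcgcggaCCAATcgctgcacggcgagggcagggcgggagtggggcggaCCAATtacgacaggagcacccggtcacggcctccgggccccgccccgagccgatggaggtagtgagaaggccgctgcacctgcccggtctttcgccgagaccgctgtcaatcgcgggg
Insig1: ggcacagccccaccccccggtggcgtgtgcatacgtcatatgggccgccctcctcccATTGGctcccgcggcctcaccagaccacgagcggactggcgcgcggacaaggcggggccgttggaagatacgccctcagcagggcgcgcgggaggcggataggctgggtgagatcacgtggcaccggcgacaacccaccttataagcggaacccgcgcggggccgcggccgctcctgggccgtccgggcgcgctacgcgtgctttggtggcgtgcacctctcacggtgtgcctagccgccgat
Acss2: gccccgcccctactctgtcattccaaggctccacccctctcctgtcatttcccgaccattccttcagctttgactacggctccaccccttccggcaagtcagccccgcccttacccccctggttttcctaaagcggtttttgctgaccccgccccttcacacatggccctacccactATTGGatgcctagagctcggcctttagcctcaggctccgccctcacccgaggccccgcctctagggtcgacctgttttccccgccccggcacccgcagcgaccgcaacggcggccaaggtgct
Fads1: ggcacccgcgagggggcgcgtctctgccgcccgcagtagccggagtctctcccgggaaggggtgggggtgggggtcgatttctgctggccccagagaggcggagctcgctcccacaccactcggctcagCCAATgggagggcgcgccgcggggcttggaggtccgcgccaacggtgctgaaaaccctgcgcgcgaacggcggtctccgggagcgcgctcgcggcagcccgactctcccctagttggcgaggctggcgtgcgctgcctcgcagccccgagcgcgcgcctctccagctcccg
Msmo1 holds 3 boxes, which begin 173, 109 and 68 bases before the start, and Insig1, Acss2 and Fads1 hold 1 each, 193, 73 and 121 bases before it. All 6 genes with a window among the 7 lower at 18 h than at 6 h hold a box, and so do both genes that were higher.

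Of the 5 genes that sense sterols and control SREBP, Insig1 alone was called, and only between 6 h and 18 h. Insig1, itself an SREBP target, read 10.27, 9.74, 10.34 and 10.12 in the sham arrays, 10.68, 10.41, 10.37 and 10.20 at 6 h, 10.29, 10.25, 10.19 and 10.68 at 12 h, and 9.49, 10.14, 9.76 and 9.87 at 18 h. Every 18 h array lay below every 6 h array, while sham overlapped both. Insig1 fell by 0.60 between 6 h and 18 h (SE 0.17, adjusted p = 0.0422 in limma), by 0.73 within replicates 1 and 2 and by 0.47 within replicates 3 and 4. The array set block ended this call (adjusted p = 0.0801), and it was lost in 6 of the 8 fits without 1 array, with an adjusted p of up to 0.128 without 6 h replicate 1.

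Srebf2, which encodes SREBP2, read 9.09, 8.74, 9.74 and 9.24 in the sham arrays, 8.04, 9.32, 9.50 and 9.29 at 6 h, 9.06, 9.09, 9.33 and 9.83 at 12 h, and 8.90, 9.30, 9.31 and 8.99 at 18 h. These groups overlapped throughout, and 6 h replicate 1 lay well below the other 3 arrays of its group. The difference of Srebf2 at 18 h against 6 h was 0.08 ± 0.30 (SE, adjusted p = 0.915). Srebf1, which encodes SREBP1, read 8.20, 8.28, 8.62 and 8.21 in the sham arrays, 8.05, 8.32, 7.92 and 8.12 at 6 h, 8.11, 8.16, 8.37 and 8.21 at 12 h, and 7.91, 8.15, 8.22 and 7.85 at 18 h. Its groups overlapped too, with differences from sham of -0.23, -0.11 and -0.29 at 6, 12 and 18 h, and the smallest adjusted p was 0.171. Scap differed from sham by -0.29 at 18 h (adjusted p = 0.136, and 0.0411 with the replicate pair block) and Insig2 by -0.07 (adjusted p = 0.769).

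In the fatty acid arm, 4 of the 10 genes rose at 12 h against sham (3.77% of all tested probe sets) and none fell (4.09%). Acss2, which makes acetyl-CoA from acetate, read 11.21, 10.19, 10.51 and 10.16 in the sham arrays, 10.19, 10.26, 10.54 and 11.01 at 6 h, 11.47, 11.79, 10.99 and 11.46 at 12 h, and 11.60, 11.77, 11.77 and 11.65 at 18 h. The 18 h arrays were tightly grouped above all sham and 6 h arrays, whereas at 12 h 1 array overlapped sham. Acss2 was 0.91 ± 0.24 (SE) above sham at 12 h (1.88-fold, adjusted p = 0.0291) and 1.18 ± 0.24 above sham at 18 h (2.26-fold, adjusted p = 0.00513). The 12 h difference was 0.93 within replicates 1 and 2 and 0.89 within replicates 3 and 4. The 18 h difference was 0.99 within replicates 1 and 2 and 1.37 within replicates 3 and 4, and with any 1 array left out its adjusted p was at most 0.0212.

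Between the times, 2 genes were higher at 12 h than at 6 h (1.82% of all tested probe sets) and 2 were lower (2.46%). The higher ones were Acss2 and Fads1, and the lower ones Lss and Lpin1. Acss2 was 0.93 above its 6 h level at 12 h (SE 0.24, adjusted p = 0.0407) and 1.20 above it at 18 h (SE 0.24, adjusted p = 0.00645). Within replicates 1 and 2 these differences were 1.40 and 1.46, and within replicates 3 and 4 they were smaller, 0.45 and 0.93. The 18 h call held in all 8 fits without 1 array, and the 12 h call was lost in 6 of 8, with an adjusted p of up to 0.117 without 6 h replicate 1. The array set block also ended the 12 h call (adjusted p = 0.0522). The count of called genes at 12 h against 6 h fell to 2, Lss and Lpin1, without 6 h replicate 1, 2 or 3 or without 12 h replicate 1 or 2.

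Fads1, the delta-5 desaturase of polyunsaturated fatty acid synthesis, read 9.44, 8.19, 9.12 and 8.67 in the sham arrays, 8.23, 7.97, 8.52 and 9.38 at 6 h, 10.47, 10.68, 9.39 and 9.93 at 12 h, and 9.60, 9.74, 10.14 and 10.46 at 18 h. Every 12 h and 18 h array lay above every 6 h array, and at 12 h 1 array overlapped sham. Against sham, Fads1 was 1.26 ± 0.35 (SE) higher at 12 h (2.40-fold, adjusted p = 0.0425 in limma), with 1.76 within replicates 1 and 2 and 0.76 within replicates 3 and 4. At 18 h it was 1.13 ± 0.35 above sham, short of a call (adjusted p = 0.0583, and 0.0462 with the replicate pair block). Against 6 h, Fads1 was 1.59 higher at 12 h (3.02-fold, adjusted p = 0.0221) and 1.46 higher at 18 h (2.75-fold, adjusted p = 0.0209). The 12 h difference was 2.47 within replicates 1 and 2 but 0.71 within replicates 3 and 4, and the 18 h difference was 1.57 and 1.35. These 2 calls were each lost in 5 of 8 fits without 1 array, with adjusted p of up to 0.0740 without 12 h replicate 1 and 0.0680 without 6 h replicate 2.

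Fasn, fatty acid synthase, read 10.03, 9.46, 9.59 and 9.38 in the sham arrays, 9.80, 9.94, 9.89 and 9.76 at 6 h, 10.81, 10.57, 9.91 and 10.37 at 12 h, and 9.92, 9.91, 9.71 and 10.54 at 18 h. The 12 h group was the highest, and in it 1 array lay within the sham range. Fasn was 0.80 ± 0.21 (SE) above sham at 12 h (1.74-fold, adjusted p = 0.0278 in limma) and 0.41 above it at 18 h (adjusted p = 0.268). The 12 h difference was 0.95 within replicates 1 and 2 and 0.65 within replicates 3 and 4. A second Fasn probe set rose by 0.96 at 12 h (adjusted p = 0.0190). With the array set block the first was not called (adjusted p = 0.0664).

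Acaca, acetyl-CoA carboxylase, supplies Fasn with malonyl-CoA. It read 7.98, 7.71, 8.33 and 8.18 in the sham arrays, 8.35, 8.28, 8.45 and 8.49 at 6 h, 8.55, 8.33, 8.52 and 8.64 at 12 h, and 8.38, 8.43, 8.48 and 8.41 at 18 h. All 18 h arrays lay above the sham arrays, which were spread the widest, while 1 array at 6 h fell within the sham range and 1 at 12 h touched its top. Acaca was 0.46 ± 0.12 (SE) above sham at 12 h (1.37-fold, adjusted p = 0.0305 in limma), with 0.59 within replicates 1 and 2 and 0.33 within replicates 3 and 4. The array set block gave 0.55 at 12 h (adjusted p = 0.00930) and 0.47 at 18 h (adjusted p = 0.0183). Without that block the 18 h difference was 0.38, not called (adjusted p = 0.0628).

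The 6 calls at 12 h against sham depended on the arrays in the fit. None was left without 12 h replicate 1 or without 12 h replicate 4, and 1 was left without sham replicate 2, 3 or 4. Without 12 h replicate 2 there were 3 called genes, and without sham replicate 1 or 12 h replicate 3 there were 4, including Hsd17b7 and Acat2 as new ones in 1 fit each. Acss2, Fasn and Fads1 were each lost in 6 of 8 such fits, Lss in 6, Acaca in 5 and Sqle in 7, at adjusted p of up to 0.137. All 6 kept their direction.

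**Figure D4:**
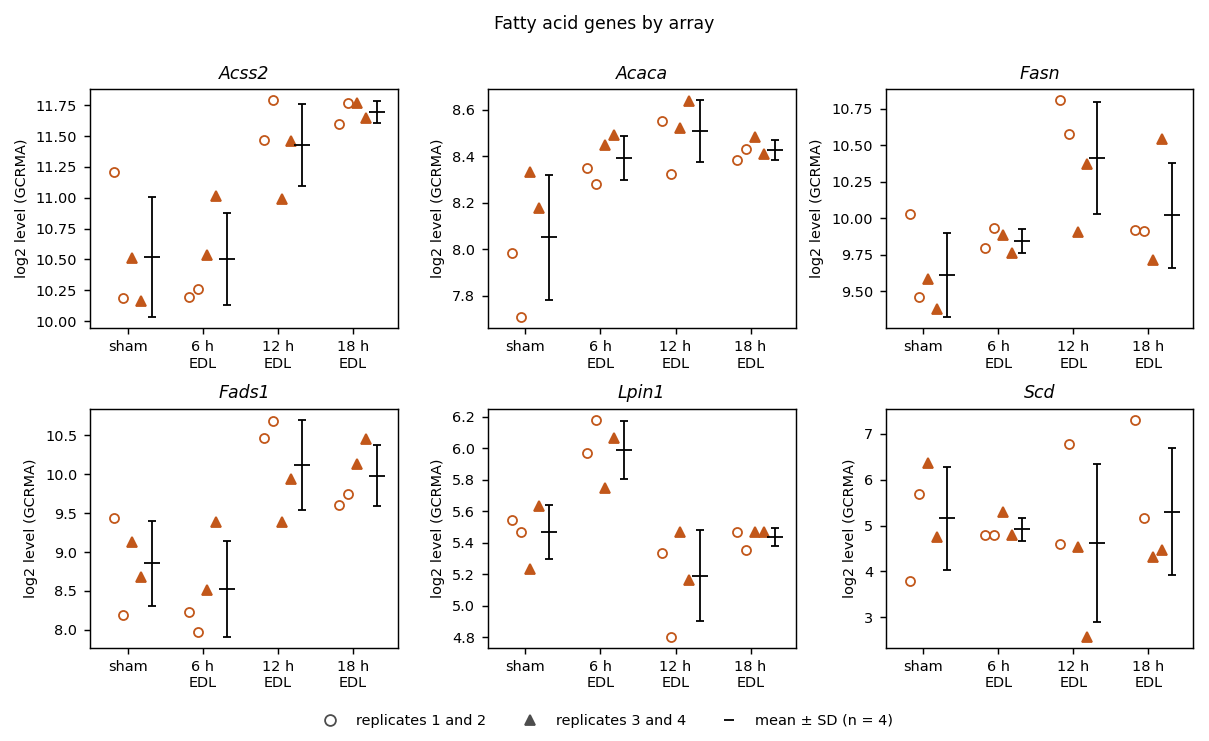
Log2 level (vertical axis) in each of the 4 arrays of sham, 6 h, 12 h and 18 h EDL for 6 genes of the fatty acid arm; circles are replicates 1 and 2, triangles replicates 3 and 4, and bars mean ± SD. The means of Acss2 and Fads1 lie higher at 12 h and 18 h than at 6 h, Lpin1 peaks at 6 h, and Scd is spread widely within groups.

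Lpin1, a phosphatidate phosphatase of triglyceride synthesis that also acts on transcription, had its highest mean at 6 h, as did Elovl6 in this arm. It read 5.55, 5.47, 5.23 and 5.63 in the sham arrays, 5.97, 6.18, 5.75 and 6.07 at 6 h, 5.33, 4.80, 5.47 and 5.16 at 12 h, and 5.47, 5.35, 5.47 and 5.47 at 18 h. All 6 h arrays lay above all other arrays. Lpin1 was 0.52 ± 0.14 (SE) above sham at 6 h, not called (adjusted p = 0.265 in limma), and it fell by 0.80 between 6 h and 12 h (adjusted p = 0.00555) and by 0.55 between 6 h and 18 h (adjusted p = 0.0259). Within replicates 1 and 2 these differences were -1.01 and -0.66, and within replicates 3 and 4 they were -0.59 and -0.44. The 12 h call held in all 8 fits without 1 array, and the 18 h call was lost in 6 of 8, with an adjusted p of up to 0.0806 without 6 h replicate 2. These levels sit near the minimum for testing, and the same value, 5.47, recurred to 6 decimals in 5 of the 16 arrays. A second Lpin1 probe set gave -0.10 and -0.16 for those comparisons, neither called.

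Scd, the stearoyl-CoA desaturase gene under this symbol, read 3.80, 5.70, 6.37 and 4.76 in the sham arrays, 4.80, 4.79, 5.30 and 4.79 at 6 h, 4.59, 6.78, 4.53 and 2.58 at 12 h, and 7.30, 5.16, 4.30 and 4.46 at 18 h. Within the sham, 12 h and 18 h groups the arrays differed by more than the 4 group means did, and its largest difference from sham, -0.54 ± 0.81 (SE) at 12 h, had an adjusted p of 0.812. Acly, which makes cytosolic acetyl-CoA from citrate, ranged from 12.31 to 12.95 and averaged 12.76 ± 0.14 at 18 h, against 12.46 ± 0.11 at 6 h (SD, n = 4 each). In Acly, Acss2 and Fads1 the 4 arrays at 18 h all lay above those at 6 h (6.67% of all tested probe sets), but Acly was not called (adjusted p = 0.134). The elongases Elovl5 and Elovl6 and the delta-6 desaturase Fads2 were not called in any of the 6 comparisons, with differences between groups of -0.33 to 0.50.

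None of the 6 tested genes of sterol transport and LXR was called in any of the 6 comparisons. Abca1, which exports cholesterol from cells, ranged from 5.56 to 10.28. Both extremes lay in the 6 h group, and its standard error was 1.13. Its other tested probe sets gave 0.67, 0.71 and 0.83 at 18 h against sham, with standard errors of 0.33, 0.33 and 0.83. None of those was called (limma adjusted p = 0.261, 0.217 and 0.635). Abcg1, a second exporter, averaged 7.54 ± 0.45 at 12 h and 7.58 ± 0.19 at 18 h, against 6.99 ± 0.38 in sham tissue (SD, n = 4 each), with adjusted p of 0.337 and 0.260 in limma. The LXR genes Nr1h2 and Nr1h3 differed from sham by -0.07 to 0.01 and by -0.07 to 0.32. Stard4, which carries cholesterol between membranes and is a known SREBP target, gave -0.61 ± 0.26 (SE) at 18 h against sham (adjusted p = 0.175), and Soat1, which esterifies cholesterol for storage, gave -0.18 (adjusted p = 0.832).

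Among 40 tested genes of neighbouring pathways, none was called at 6 h against sham. At 12 h 3 were higher and 4 lower (3.77% and 4.09% of all tested probe sets), and at 18 h 2 were higher and 7 lower (5.20% and 4.96%). Against 6 h, 1 was higher and 3 lower at 12 h (1.82% and 2.46% of all tested probe sets). At 18 h against 6 h, 2 were higher and 4 lower (3.54% and 4.34%). The 5 tested genes of the isoprenoid branch were not called in any comparison. Of the 6 tested genes of SREBP processing and sterol-regulated degradation 1 was called, Mylip, a ubiquitin ligase for lipoprotein receptors, which fell by 0.56 at 18 h. Of the 10 tested genes of sterol uptake, transport and conversion 1 was called, the lipoprotein receptor gene Vldlr, which fell by 0.53 at 18 h. The rest were among 19 other genes of fatty acid and triglyceride synthesis, where the largest changes exceeded those of the 10 listed fatty acid genes.

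Fads3, a relative of Fads1, averaged 10.76 at 12 h and 10.93 at 18 h, against 9.49 in sham tissue, and rose by 1.27 (adjusted p = 3.13e-04) and 1.44 (adjusted p = 7.72e-05). The desaturase gene Scd2, a close relative of Scd that the probe sets may not fully separate from it, averaged 12.34 at 12 h and 12.19 at 18 h, against 13.33 in sham tissue. Scd2 fell by 0.99 at 12 h (adjusted p = 0.00351) and fell by 1.14 at 18 h (adjusted p = 9.31e-04). Mogat1, which acylates monoacylglycerol, averaged 3.16 at 12 h and 2.99 at 18 h, below the minimum level, against 8.58 in sham tissue. Mogat1 reached the test only with arrays of other groups, so its fall was in part set by that minimum. Acsl1, which activates fatty acids, averaged 8.55 at 12 h and 8.91 at 18 h, against 11.30 in sham tissue, with changes of -2.74 and -2.39 (adjusted p = 6.64e-04 and 0.00149). Elovl2, an elongase of polyunsaturated fatty acids, fell by 1.14 at 12 h and fell by 1.67 at 18 h. The remaining calls against sham were in Mlxip, Elovl1 and Acsl4. Mlxip, a glucose-responsive transcription factor, rose at 12 h and 18 h (0.78 and 0.99). The elongase gene Elovl1 rose at 12 h (0.43), and Acsl4, which activates arachidonic acid, changed by -0.47 at 18 h.

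Markers of other tissue parts were read beside these comparisons. The epithelial marker Epcam averaged 12.36 in sham tissue and 12.50, 12.33 and 12.28 at 6, 12 and 18 h. Of 6 epithelial markers, Cdh1 was higher at 18 h than at 6 h (by 0.51), and Cldn3 was higher at 12 h and 18 h than in sham tissue (by 0.76 and 0.52). Of 5 tested initial segment markers 1, Ggt1, was lower at 18 h than at 6 h (fell by 0.79, adjusted p = 0.00971) and at 12 h and 18 h than in sham tissue (fell by 0.60 and 0.76). The median change of the 5 from sham was 0.12, -0.63 and -0.49 at 6, 12 and 18 h. Summed, these 5 markers read 14.63 to 15.41 in sham tissue and 15.13 to 15.58 at 6 h. At 12 h they were spread more widely, from 13.39 to 15.31, and at 18 h they read 14.66 to 15.07. The sperm markers Smcp, Odf1 and Prm1, the 3 tested of 6 listed, were all lower at 12 h and 18 h than in sham tissue, with median changes of -4.05 and -4.63, and Smcp was also lower at 6 h (fell by 3.99). The summed level of the 6 sperm markers was 8.48 to 11.28 in sham tissue, 5.49 to 9.12 at 6 h, 5.49 to 6.92 at 12 h and 5.50 to 6.03 at 18 h. The endothelial marker Kdr, the 1 tested of 5 listed, was higher at 18 h than in sham tissue (by 0.95, adjusted p = 0.00876) and than at 6 h (by 0.85, adjusted p = 0.0207). The summed level of the 4 endothelial markers with a probe set was 7.48 to 8.09 in sham tissue, 7.60 to 7.89 at 6 h, 7.64 to 8.15 at 12 h and 8.10 to 8.84 at 18 h. Of 6 smooth muscle markers 1, Actg2, was higher at 18 h than at 6 h (by 0.73). The fibroblast markers (7 tested) and the 1 tested red cell marker were not called in any comparison. The fat cell markers Adipoq, Plin1 and Cidec lay between 2.22 and 2.94 in all arrays, at or near the lowest value, and of the 2 fat cell markers tested 0 were called. The summed level of the 8 fat cell markers was 6.33 to 7.20 in sham tissue, 5.94 to 6.95 at 6 h, 5.66 to 8.13 at 12 h and 5.80 to 8.18 at 18 h. Of 8 tested macrophage markers 1, Cd68, was higher at 18 h than at 6 h (by 1.52), and the summed level of the 9 listed was 9.43 to 10.15 in sham tissue, 9.16 to 9.99 at 6 h, 8.55 to 10.89 at 12 h and 9.60 to 10.63 at 18 h. The steroidogenic markers Star and Cyp11a1 lay between 2.22 and 2.79. The Gapdh signal at the 3′ end exceeded that at the 5′ end on average by 0.02 in sham tissue and by 0.05, 0.15 and 0.13 at 6, 12 and 18 h. The part of cell content and RNA quality in the results was not tested.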

How the data were processed

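Biotin-labelled RNA of 16 initial segment samples was measured on 16 Affymetrix rat arrays. The deposited table holds 1 log2 value per probe set and array, made with GCRMA per the submitters' processing notes, a method that corrects background by probe sequence, quantile-normalizes and summarizes. The GCRMA version was not given in those notes. Because GCRMA sets weak signals to a common low value and aligns the arrays' distributions, low genes are compressed and a shift shared by all genes cannot be seen. Of 31099 probe sets, 57 controls were left out. The platform annotation of 2016 gave 20826 of the remaining 31042 1 symbol, 436 several and 9780 none; Entrez IDs of the 38 genes with a probe set were all found in a GRCr8 gene table under the same symbol.

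Probe sets at or above 5 in at least 4 of the 16 arrays (13410) were fitted with limma 3.58.1 in R 4.3.3 (lmFit, eBayes, 4 group means, 6 comparisons, shared spread), with p-values adjusted by Benjamini-Hochberg over all tested probe sets of a comparison. A gene set apart as a marker or neighbour used its brightest probe set. The number of arrays limits the precision; medians of tested probe sets were 7.51 to 7.62 per array, correlations between arrays 0.882 to 0.986, and 0 pairs were identical. The genes, arms, lists and markers were chosen with earlier results of these data known, and all members were named; array values were printed for members called in any comparison and for Srebf1, Srebf2 and Scd. Promoters are from RefSeq (GRCr8), searched with Python 3.11.

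Alternatives were a trended robust prior, no minimum or a minimum of 7, centred or requantiled arrays, only the 2 groups compared, blocks for replicate number, replicate pair or array set, fits within replicates 1 and 2 or 3 and 4, the mean of a gene's probe sets, array weights, an adjusted p under 0.01, and each array left out in turn. The labels give no pairing by number, so the numbers were not taken as pairs in the main fit. Same-numbered arrays of different groups deviated from their group means with correlations of 0.0065 to 0.556. Differently numbered arrays of different groups gave -0.601 to 0.630. Counts with a block for the replicate number are given further on.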

Additional observations from a re-analysis of the deposited data

Results flagged for a closer look

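In 10 of 148 sets of 4 arrays (6.76%, where chance alone gives about 1 in 20), the highest or lowest array stood apart from the other 3, the share of the range taken by its gap to the nearest array being above Dixon's critical value for 4 samples. For Acat2 at 18 h, replicate 3 was low with a gap share of 0.859. For Mvd and Nsdhl at 18 h, replicate 1 was low, with shares of 0.853 and 0.854. Fdft1 was low in sham replicate 2, at 8.60 against 9.16 for the nearest array, a share of 0.897. Srebf2 at 6 h was low in replicate 1, at 8.04 against 9.29, a share of 0.856. Acly was high in sham replicate 1 with a share of 0.856, and Soat1 in sham replicate 2 with 0.870. Scd at 6 h was high in replicate 3, with a share of 0.975 in a group whose other arrays lay at 4.79 to 4.80. Nr1h3 at 6 h was low in replicate 1 with a share of 0.887. Lpin1 at 18 h was low in replicate 2 with a share of 1, because the other 3 arrays held the same value, 5.47.

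The change from sham differed between times, by the direct test of the later against the earlier time in limma, in 4 genes at 12 h against 6 h and in 9 genes at 18 h against 6 h. At 12 h against 6 h the differences were -0.68 for Lss, 0.93 for Acss2, 1.59 for Fads1 and -0.80 for Lpin1. At 18 h against 6 h they were -0.66 for Idi1, -0.78 for Fdft1, -0.64 for Lss, -0.92 for Msmo1, -0.65 for Sc5d, -0.60 for Insig1, 1.20 for Acss2, 1.46 for Fads1 and -0.55 for Lpin1.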

How the results depend on the processing

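The counts of called genes reported were 0, 6 and 3 at 6, 12 and 18 h against sham, 4 at 12 h and 9 at 18 h against 6 h, and 0 at 18 h against 12 h. No called gene changed direction under any alternative run, and the 6 h count was 0 under all of them. With no minimum level the counts were 0 at 12 h and 1 at 18 h against sham, 2 at 12 h and 5 at 18 h against 6 h. With only the 2 groups compared they were 0 and 1 against sham and 1 at 12 h against 6 h. Within replicates 1 and 2 alone they were 0 and 0 against sham and 0 at 18 h against 6 h; within replicates 3 and 4 alone they were 0 at 12 h against sham, 0 at 12 h and 5 at 18 h against 6 h. At an adjusted p under 0.01 they were 0 and 1 against sham, 2 and 5 against 6 h. The array set block gave 3 at 12 h against sham. At 18 h against sham, the mean of all probe sets gave 1, array weights 5 and the pair block 7. The replicate block gave 7 at 18 h against sham and 1, Fdps as lower, at 18 h against 12 h, and 8, 5 and 13 in the other 3 comparisons with calls, with Ebp higher at 18 h against 6 h (adjusted p = 0.0480); 11 of 16 arrays correlated best with an array of their own number, a hint from the data only. Leaving out 1 array gave 0 to 4 at 12 h and 1 to 5 at 18 h against sham, 2 to 5 at 12 h and 5 to 8 at 18 h against 6 h. With 4 arrays a group the precision is limited, and Dhcr7, Scd, Mvd and Lpin1 lie near the table's low end.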
